A study of Homo sapiens with 24 samples.

Results

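The ERK pathway feedback genes examined here are 10 genes whose transcripts follow the activity of the RAS, RAF, MEK and ERK kinase cascade: the phosphatase genes DUSP4, DUSP5 and DUSP6, the Sprouty genes SPRY2 and SPRY4, the related SPRED1 and SPRED2, the transcription factor genes ETV4 and ETV5, and PHLDA1. They were taken by gene symbol from a count table of 35993 symbols, as a list drawn up with earlier results of these data known, and all 10 had enough counts to be tested in both lines. RNA was sequenced from J82 and RT-112, established human bladder cancer cell lines, in 8 groups of 3 biological replicates, 24 libraries in all. Each line was represented by its parental cells, the control, and by derived lines labelled CD44 Low (low expression of the CD44 receptor), CD44 High (high expression of CD44) and CD44v6 (high expression of the CD44v6 receptor). CD44 is a surface receptor for hyaluronan, and v6 denotes a variant exon included in some of its isoforms. No drug or other treatment is given for any group, and neither the way the derived lines were made nor whether each is a single clone is given in the sources used here. A difference between groups is therefore a difference between these particular lines.

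Growth factor receptors switch on RAS, and RAS activates RAF, MEK and ERK in turn; active ERK then induces genes whose products damp the same cascade. DUSP6 is a cytoplasmic phosphatase that inactivates ERK, DUSP4 and DUSP5 are nuclear ones, Sprouty proteins restrain signalling between receptors and RAF, and SPRED proteins bring neurofibromin to RAS. ETV4 and ETV5 are ETS transcription factors induced by ERK signalling downstream of fibroblast growth factor receptors, and PHLDA1 is an ERK-induced protein with a pleckstrin homology-like domain. In bladder cancer the pathway is best known for activating changes in the receptor FGFR3 and in RAS genes.

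Promoter sequences were available for 6 of the 10 genes, with 9 transcription start sites between them, from RefSeq on build GRCh38.p14. Those of DUSP6 and SPRY4, which rose with high CD44 in both lines, and of SPRED1, which was called in no comparison, are shown from 250 bases before to 50 bases after the start, 5′ to 3′ on the gene's own strand. Capitals mark the only motif match in these 3 windows, TGAATGA, a form of the site bound by Capicua (CIC), a repressor that ERK signalling inactivates.
DUSP6 (chr12:89352452-89352751, minus strand): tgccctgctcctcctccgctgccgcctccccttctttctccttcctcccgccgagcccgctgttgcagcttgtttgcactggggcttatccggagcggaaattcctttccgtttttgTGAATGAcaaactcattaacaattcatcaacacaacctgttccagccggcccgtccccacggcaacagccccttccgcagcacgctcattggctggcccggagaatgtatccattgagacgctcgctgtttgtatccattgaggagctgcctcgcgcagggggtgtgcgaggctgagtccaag
SPRY4 (chr5:142324198-142324497, minus strand): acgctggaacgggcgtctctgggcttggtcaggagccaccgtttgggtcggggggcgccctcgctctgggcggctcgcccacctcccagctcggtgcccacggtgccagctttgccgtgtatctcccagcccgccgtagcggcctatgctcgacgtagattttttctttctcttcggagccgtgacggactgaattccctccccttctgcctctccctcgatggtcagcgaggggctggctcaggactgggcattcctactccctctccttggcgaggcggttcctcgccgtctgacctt
SPRED1 (chr15:38252586-38252885, plus strand): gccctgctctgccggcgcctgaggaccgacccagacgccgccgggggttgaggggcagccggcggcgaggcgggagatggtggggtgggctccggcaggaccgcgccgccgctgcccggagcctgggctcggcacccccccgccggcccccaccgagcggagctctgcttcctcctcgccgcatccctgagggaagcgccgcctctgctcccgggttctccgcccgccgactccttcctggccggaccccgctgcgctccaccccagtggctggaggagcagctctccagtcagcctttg
In the DUSP6 window the match starts at position -133 from the transcription start. The same 7 letters, on either strand, were in 4.02% of 34796 promoter windows of this length. Other motifs were searched on both strands in the 9 windows. The second Capicua form TGAATGG (3.18% of all windows) and the ETS core CCGGAAG (10.2%) were in none of them. The AP-1 motif TGANTCA (7.73%) was in 1, at positions -6 and 35 of the second SPRED2 start, and the cyclic AMP response element core TGACGTC (3.43%) was in 1, at position 29 of the first SPRED2 start. These matches describe the letters in the windows and do not show binding.

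Libraries held 16752825 to 24419670 counts, and the 10 genes had 37 to 8106 counts per library. CD44 itself ran from 254 to 309 CPM in J82 CD44 Low against 708 to 764 in J82 CD44 High, and from 120 to 152 against 351 to 491 in RT-112, so these libraries matched their labels. The CD44v6 libraries had 612 to 1072 CPM of CD44 in J82 and 378 to 516 in RT-112. Counts per gene symbol do not separate isoforms, so the v6 part of that label was not checked. CPM are counts set to a common library size, with TMM factors over all 24 libraries; they compare libraries, not genes of different length. Of 13 urothelial and epithelial markers, RT-112 had 12 at 1 CPM or more in every group, with UPK3A at 0, whereas J82 had 7 or 8, with KRT5, UPK2 and UPK3A at 0 and GATA3 under 1 CPM. Of 9 markers of leukocytes, endothelium and fibroblasts, 3 or 4 reached 1 CPM per group; DCN was at 0 in every group, and PTPRC and CD3E stayed under 1 CPM. In RNA from whole cultures, a change in the share of cells that use a gene and a change in RNA per cell cannot be told apart.

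Of the feedback genes, DUSP6, SPRY4, ETV4 and ETV5 were higher in the lines with much CD44 than in those with little. In both J82 and RT-112, each of these 4 was called higher when CD44 High or CD44v6 was compared with CD44 Low. A gene is called here at an edgeR adjusted p under 0.05. In J82 CD44 High against CD44 Low, 5 of 10 were called higher, the fifth being PHLDA1, beside 8.83% of all 15951 genes tested; the median log2 fold change was 0.81 for the 10 and -0.016 over all genes. The same comparison in RT-112 gave 4 of 10 called higher, beside 9.01% of 15645 genes, with medians of 0.36 and 0.0155. CD44v6 against CD44 Low gave 4 of 10 in J82 (6.18% of all genes) and 6 of 10 in RT-112 (7.97%), where PHLDA1 and SPRED2 joined the 4 shared genes. With 1 library left out, the RT-112 counts ran from 1 to 3 in CD44v6 and from 2 (without CD44 High replicate 1) to 6 in CD44 High; the CD44v6 count was also 3 without the filter on low counts and in a fit over all 24 libraries. Both comparisons of a line use the same CD44 Low libraries. None of the 10 was called lower in any of these 4 comparisons.

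Markers of cell type moved between the same groups. In CD44 High against CD44 Low, 15.7% of all genes tested in J82 and 16.0% in RT-112 were called in either direction, to set beside the marker counts. In J82 CD44 High against CD44 Low, 3 of 4 tested markers of leukocytes, endothelium and fibroblasts were called: the macrophage marker CD68 was higher (log2 fold change 0.84, edgeR adjusted p = 0.0262), and the fibroblast and mural cell markers LUM (-1.01, edgeR adjusted p = 0.000402) and PDGFRB (-1.20, edgeR adjusted p = 0.0248) were lower. In RT-112, 1 of 4 was called, LUM at -0.69 (edgeR adjusted p = 0.0191). LUM was at 23.5 ± 3.71 CPM (SD, n = 3) in J82 CD44 Low and 11.6 ± 0.676 in CD44 High, and at 232 ± 31.0 and 141 ± 35.6 in RT-112. The summed level of the list was 120 to 162 CPM in J82 CD44 Low and 161 to 235 in CD44 High, and 228 to 282 and 133 to 194 in RT-112. Of the urothelial and epithelial markers, 4 of 8 tested were called in J82 (FOXA1, KRT7 and PPARG higher, CDH1 lower) and 7 of 12 in RT-112 (KRT5 and EPCAM higher; KRT7, KRT8, KRT19, PPARG and UPK1B lower). Their summed level was 6470 to 7880 CPM in J82 CD44 Low and 8760 to 10600 in CD44 High, and 13400 to 15600 and 10800 to 12100 in RT-112. In RT-112, PDGFRB, DCN and PTPRC had 0 counts in every group. The part of these marker changes in the results on the feedback genes was not tested.

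**Figure D1:**
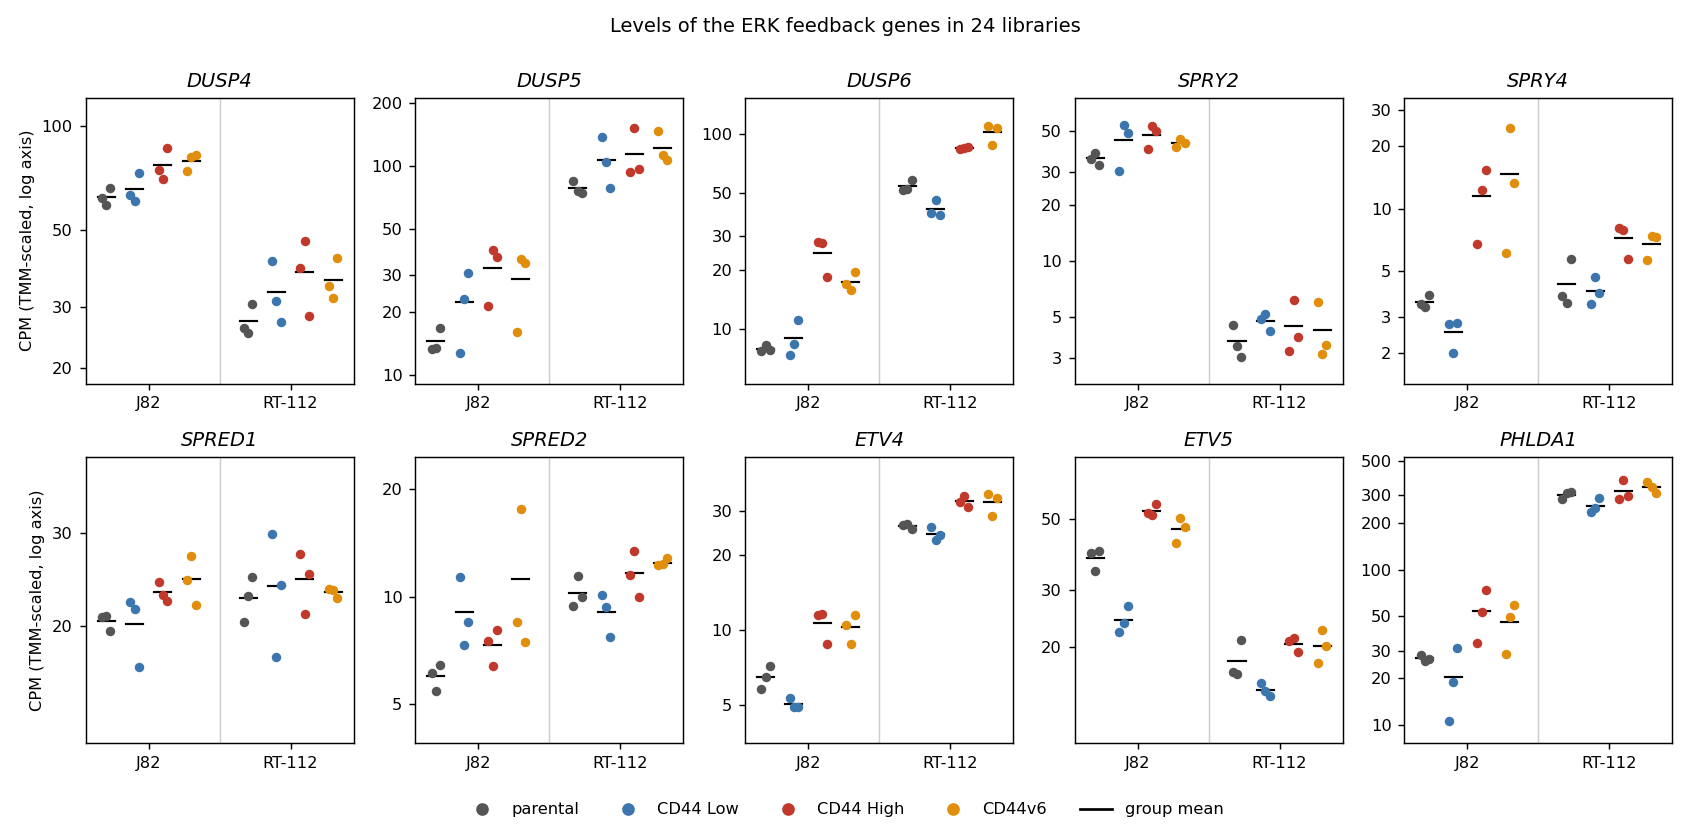
Level of each gene in each library (CPM, log axis), one panel per gene, with J82 on the left and RT-112 on the right of each panel; dots are libraries coloured by group and black lines are group means of 3. DUSP6 reached 18.5 to 28 CPM in J82 CD44 High against 7.30 to 11.1 in CD44 Low, and SPRED1 stayed between 16.7 and 29.98 CPM in every library.

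DUSP6 was the phosphatase gene of the 3 that was called within the lines. In J82 it measured 7.66, 8.27 and 7.75 CPM in the parental replicates 1 to 3 and 7.30, 8.37 and 11.1 in CD44 Low. The J82 CD44 High replicates were at 28, 27.5 and 18.5 CPM and the CD44v6 replicates at 16.9, 15.8 and 19.6. All 6 libraries of CD44 High and CD44v6 thus lay above all 6 of parental and CD44 Low. RT-112 started from a higher level, 51.4, 52.1 and 58.0 CPM in parental cells, with 39.3, 45.7 and 38.3 in CD44 Low. RT-112 CD44 High measured 83.5, 85.4 and 86.0 CPM and CD44v6 110, 88.0 and 108. No pair of neighbouring RT-112 groups overlapped in the order CD44v6, CD44 High, parental, CD44 Low.

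Against CD44 Low, DUSP6 in CD44 High was 2.77-fold higher in J82 (log2 fold change 1.47, SE 0.19, edgeR adjusted p = 0.000176) and 2.12-fold higher in RT-112 (1.08, SE 0.10, edgeR adjusted p = 8.62e-05). CD44v6 was 1.96-fold higher than CD44 Low in J82 (0.97, SE 0.19, edgeR adjusted p = 0.00504) and 2.47-fold higher in RT-112 (1.31, SE 0.10, edgeR adjusted p = 2.86e-05). All 4 calls held with any 1 library left out. DUSP6 was also the only one of the 10 called against parental cells in RT-112, with log2 fold changes of 0.66 (SE 0.10, edgeR adjusted p = 0.0117) in CD44 High and 0.88 (SE 0.10, edgeR adjusted p = 0.00147) in CD44v6. In RT-112 CD44 Low it fell by 0.43 on the log2 scale (SE 0.10, edgeR adjusted p = 0.0416), a call that ended when any of the 6 libraries was left out (edgeR adjusted p from 0.0529 to 0.18). The RT-112 CD44 High call against parental ended without parental replicate 1 or 2 or CD44 High replicate 1 (edgeR adjusted p up to 0.128).

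DUSP5 and DUSP4 were called by edgeR, fitted on the 12 libraries of a line, in no comparison within a line. Other fits called both genes in J82, and DUSP5 also in RT-112. DUSP5 in J82 measured 13.3, 13.4 and 16.7 CPM in parental cells, 12.7, 23.1 and 30.8 in CD44 Low, 21.3, 39.4 and 36.4 in CD44 High, and 16.1, 35.6 and 34.2 in CD44v6. Replicate 1 was the lowest library of each of the 3 derived J82 groups, and the spread within these groups was wider than in parental cells. CD44 High lay wholly above parental, with a log2 fold change of 1.16 (SE 0.34, edgeR adjusted p = 0.0933), a difference that DESeq2 called (DESeq2 adjusted p = 0.00804), as it did that of CD44v6 (0.99, DESeq2 adjusted p = 0.0368). RT-112 had more DUSP5, 73.8 to 84.8 CPM in parental cells and 78.1 to 151 over the 9 derived libraries, and its CD44 High and CD44v6 libraries all lay above the parental ones (0.53, SE 0.20, edgeR adjusted p = 0.31, and 0.60, SE 0.20, edgeR adjusted p = 0.189). An edgeR fit on only the 2 groups compared called the RT-112 CD44v6 difference from parental (0.60, edgeR adjusted p = 0.0137). The difference of CD44 High from CD44 Low was 0.12 in RT-112, with a 95% interval of -0.31 to 0.56.

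DUSP4 ran the other way between the lines, with more in J82. Its J82 libraries measured 59.0 to 66.2 CPM in parental cells, 60.6 to 73.0 in CD44 Low, 70.2 to 86.0 in CD44 High and 73.9 to 82.3 in CD44v6. CD44 High and CD44v6 did not overlap with parental cells, but their log2 fold changes were small, 0.31 (SE 0.10, edgeR adjusted p = 0.144) and 0.35 (SE 0.10, edgeR adjusted p = 0.0935); DESeq2 called the second (DESeq2 adjusted p = 0.0307). In RT-112 DUSP4 ranged from 25.2 to 30.6 CPM in parental cells and from 27.1 to 46.4 in the derived lines.

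SPRY4 was the Sprouty gene of the pair that was called within the lines by edgeR fitted on 12 libraries. In J82 it measured 3.47, 3.34 and 3.82 CPM in parental cells and 2.79, 2.0 and 2.81 in CD44 Low. The CD44 High replicates were at 6.71, 12.3 and 15.3 CPM and the CD44v6 replicates at 6.11, 24.5 and 13.3. Every J82 library of CD44 High and CD44v6 lay above every library of the other 2 groups, although the CD44v6 replicates lay far apart. RT-112 changed over a smaller range: 3.80, 3.49 and 5.71 CPM in parental cells, 3.47, 4.68 and 3.90 in CD44 Low, 8.05, 7.93 and 5.71 in CD44 High, and 5.66, 7.37 and 7.30 in CD44v6.

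In J82, SPRY4 in CD44 High stood 4.53-fold over CD44 Low (log2 fold change 2.18, SE 0.43, edgeR adjusted p = 0.00437) and in CD44v6 5.76-fold over it (2.53, SE 0.43, edgeR adjusted p = 0.00237). Leaving out any 1 library kept both calls, and the second fell to a log2 fold change of 1.95 without CD44v6 replicate 2. RT-112 gave log2 fold changes of 0.88 (SE 0.22, edgeR adjusted p = 0.0179) and 0.74 (SE 0.22, edgeR adjusted p = 0.0379). The first RT-112 call ended without CD44 Low replicate 1 or CD44 High replicate 1 (edgeR adjusted p up to 0.0783), and the second without any 1 of 5 of its 6 libraries. Both RT-112 calls were also lost in a fit over all 24 libraries (edgeR adjusted p = 0.133 and 0.185). Against J82 parental cells the log2 fold changes were 1.69 in CD44 High (SE 0.42, edgeR adjusted p = 0.048) and 2.04 in CD44v6 (SE 0.42, edgeR adjusted p = 0.0267). These 2 calls ended without any 1 of 5 and of 4 libraries, respectively.

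SPRY4 shares its locus with the antisense gene SPRY4-AS1, and whether counting used strand is not given in the sources used here, so their reads cannot be told apart on that ground. SPRY4-AS1 was counted at 0 to 1.97 CPM over the 24 libraries, and it had 0 counts in J82 CD44v6 replicate 2, the library with the most SPRY4. SPRY4-IT1, also named after SPRY4, had few counts but rose in the same J82 groups. Its J82 counts were 2, 3 and 2 in parental cells, 3, 6 and 2 in CD44 Low, 14, 18 and 15 in CD44 High and 14, 18 and 11 in CD44v6. RT-112 libraries had 0 to 9. In GENCODE 29, the opposite-strand RNAs RF02038 and RF02039 lie across SPRY4 as well. The GENCODE 29 annotation also places genes across DUSP6, SPRED2, ETV4, ETV5 and PHLDA1 (the opposite-strand AC024909.2, the sense-intronic AC012370.1, DHX8, ETV5-AS1 and DGKG, and 2 antisense genes, in that order), and none across DUSP4, DUSP5, SPRY2 and SPRED1.

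SPRY2 did not follow SPRY4 in CD44 High against CD44 Low. Its J82 libraries measured 33.0 to 38.3 CPM in parental cells, 30.5 to 54.0 in CD44 Low, 39.8 to 53.1 in CD44 High and 41.1 to 45.2 in CD44v6. CD44 High and CD44 Low overlapped, with a log2 difference of 0.11 (95% interval -0.27 to 0.48). Both J82 groups with much CD44 lay wholly above parental cells. Their log2 fold changes were 0.42 in CD44 High (SE 0.17, edgeR adjusted p = 0.247) and 0.28 in CD44v6 (SE 0.17, edgeR adjusted p = 0.4). An edgeR fit on only the 2 groups compared called the CD44 High difference (edgeR adjusted p = 0.0459). RT-112 had little SPRY2, 3.06 to 6.20 CPM over all 12 libraries, and a log2 difference of -0.07 between the same groups (95% interval -0.67 to 0.53).

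SPRED1 stayed within a narrow range. It measured 16.7 to 27.1 CPM in J82 and 17.4 to 29.98 in RT-112. CD44 High differed from CD44 Low by 0.21 on the log2 scale in J82 (95% interval -0.06 to 0.47) and by 0.08 in RT-112 (95% interval -0.28 to 0.45). All neighbouring groups in the order of the 8 means, which mixes the lines, overlapped. Within J82, the CD44 High libraries lay above all those of CD44 Low and parental cells. The J82 CD44v6 libraries lay above all parental ones.

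Within the lines, SPRED2 was called once in the fits on 12 libraries, in RT-112 CD44v6 against CD44 Low. It measured 12.2, 12.3 and 12.8 CPM in RT-112 CD44v6 and 10.1, 9.37 and 7.70 in CD44 Low, without overlap (log2 fold change 0.45, SE 0.14, edgeR adjusted p = 0.0462). Each of the 6 fits that left out 1 library ended the call, with edgeR adjusted p values from 0.0599 to 0.128, and the fit over all 24 libraries gave an edgeR adjusted p of 0.222. In J82 CD44v6 it measured 8.49, 17.6 and 7.46 CPM, all above the parental libraries (log2 fold change 0.89, SE 0.28, edgeR adjusted p = 0.117). DESeq2 (DESeq2 adjusted p = 0.0433) and the fit over all 24 libraries (edgeR adjusted p = 0.0377) called that difference. Replicate 2, the high one, was also the highest J82 CD44v6 library for SPRY4 and, at 1072 CPM, the highest of the 24 for CD44.

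ETV4 and ETV5 had replicates that lay close together in most groups. ETV4 in J82 measured 5.79, 6.47 and 7.18 CPM in parental cells, 5.35, 4.92 and 4.92 in CD44 Low, 11.4, 11.6 and 8.77 in CD44 High and 10.4, 8.81 and 11.5 in CD44v6. ETV5 in J82 measured 39.2, 34.4 and 39.9 CPM in parental cells, 22.2, 23.8 and 26.8 in CD44 Low, 52.3, 51.6 and 55.7 in CD44 High and 42.2, 50.4 and 47.2 in CD44v6. For both genes the J82 parental libraries lay between CD44 Low and the 2 groups with much CD44, without overlap on either side. RT-112 had more ETV4, with 26.4, 26.6 and 25.4 CPM in parental cells, 25.8, 22.9 and 24.1 in CD44 Low, 32.6, 34.5 and 31.1 in CD44 High and 35.0, 28.6 and 33.6 in CD44v6. Its ETV5 measured 16.7, 16.5 and 21.0 CPM in parental cells, 15.5, 14.6 and 14.0 in CD44 Low, 20.8, 21.4 and 19.3 in CD44 High and 17.8, 22.5 and 20.1 in CD44v6. In RT-112 the CD44 Low libraries were below both groups with much CD44 for each gene, and the ETV5 parental range overlapped with theirs.

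In J82 CD44 High against CD44 Low, ETV4 was 2.10-fold higher (log2 fold change 1.07, SE 0.17, edgeR adjusted p = 0.000834) and ETV5 2.20-fold higher (1.14, SE 0.10, edgeR adjusted p = 1.12e-05). CD44v6 against CD44 Low gave 1.02 (SE 0.17, edgeR adjusted p = 0.00173) and 0.94 (SE 0.10, edgeR adjusted p = 7.28e-05). These 4 calls held with any 1 library left out. The RT-112 log2 fold changes were smaller: for ETV4 0.46 (SE 0.10, edgeR adjusted p = 0.00697) in CD44 High and 0.41 (SE 0.10, edgeR adjusted p = 0.0143) in CD44v6, and for ETV5 0.51 (SE 0.12, edgeR adjusted p = 0.0127) and 0.45 (SE 0.12, edgeR adjusted p = 0.0252). ETV4 in RT-112 CD44 High kept its call in all 6 fits that left out 1 library, ETV5 lost it without CD44 High replicate 1, and in CD44v6 ETV4 kept it in 3 and ETV5 in 1 of 6.

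ETV5 was also the 1 gene of the 10 that was called in J82 CD44 Low against parental cells, where it fell by 0.64 on the log2 scale (SE 0.10, edgeR adjusted p = 0.00317), and this held with any 1 library left out.

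PHLDA1 was counted at a higher CPM in RT-112 than in J82, and its J82 replicates lay far apart. J82 measured 28.4, 25.9 and 26.7 CPM in parental cells, 10.7, 19.1 and 31.5 in CD44 Low, 33.7, 53.7 and 74.5 in CD44 High and 28.9, 49.4 and 59.2 in CD44v6. Replicate 1 was the lowest library of each derived J82 group, and CD44 Low replicate 3 exceeded CD44v6 replicate 1. RT-112 measured 284, 309 and 314 CPM in parental cells, 234, 250 and 288 in CD44 Low, 282, 377 and 297 in CD44 High and 367, 342 and 312 in CD44v6. Against CD44 Low, PHLDA1 was called in J82 CD44 High (log2 fold change 1.41, SE 0.36, edgeR adjusted p = 0.0188) and in RT-112 CD44v6 (0.39, SE 0.11, edgeR adjusted p = 0.0281). Each call held in 2 of 6 fits that left out 1 library, and the RT-112 one was lost in the fit over all 24 libraries (edgeR adjusted p = 0.385). J82 CD44v6 against CD44 Low gave 1.17 (SE 0.36, edgeR adjusted p = 0.0604), with overlapping groups, and the fit over all 24 libraries called it (edgeR adjusted p = 0.0127). RT-112 CD44 High against CD44 Low gave 0.34 (SE 0.11, edgeR adjusted p = 0.0502), also with overlapping groups, and DESeq2 called it (DESeq2 adjusted p = 0.0376).

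**Figure D2:**
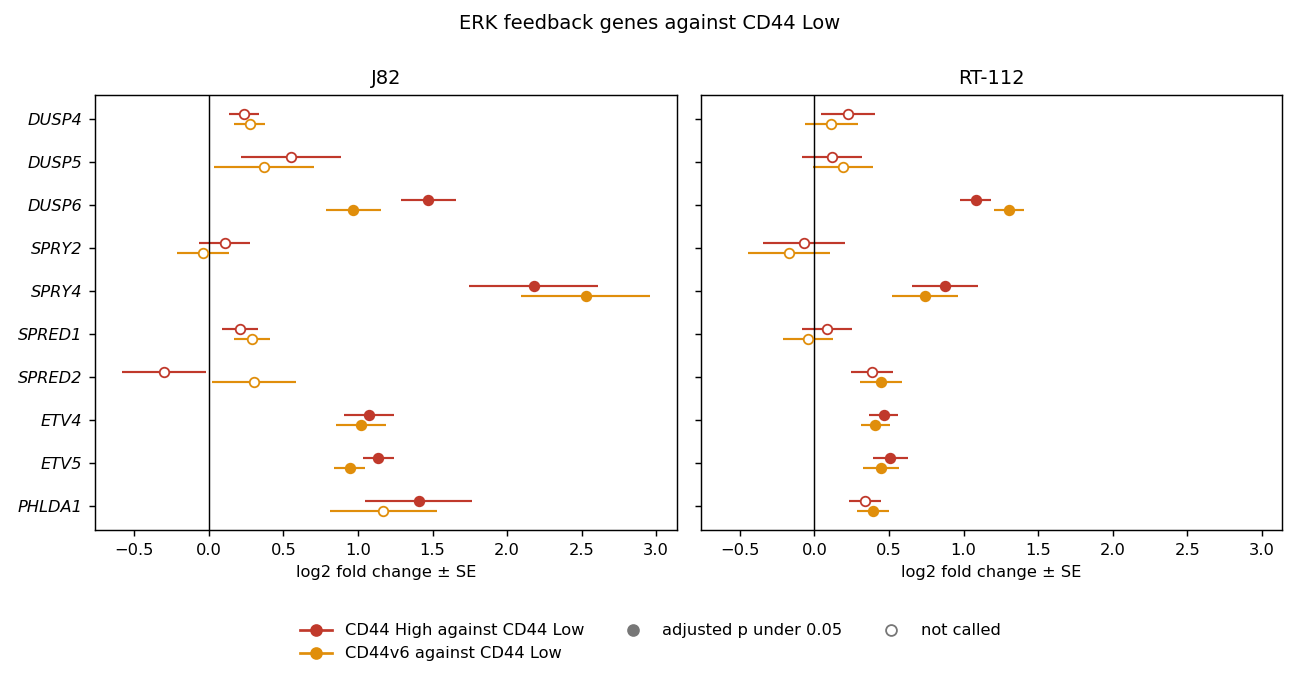
Log2 fold change of each gene in CD44 High and in CD44v6 against CD44 Low, with its standard error, in J82 (left) and RT-112 (right); filled points have an edgeR adjusted p under 0.05. DUSP6, SPRY4, ETV4 and ETV5 are filled in all 4 comparisons, with SPRY4 in J82 farthest to the right at 2.18 and 2.53.

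Against the parental cells, more of the feedback genes were called higher in J82 than in RT-112, and so were more of all genes tested. These counts do not test a difference between the lines, which is given further below. In J82 CD44 High 4 of 10 were called higher, DUSP6, SPRY4, ETV4 and ETV5, beside 1.71% of all genes tested, and in J82 CD44v6 2 of 10, DUSP6 and SPRY4, beside 1.86%. DUSP6 had log2 fold changes of 1.65 (SE 0.19, edgeR adjusted p = 0.000826) and 1.14 (SE 0.19, edgeR adjusted p = 0.011); the first held with any 1 library left out, and the second ended without parental replicate 1 or 2. ETV4 and ETV5 in J82 CD44 High were at 0.72 (SE 0.16, edgeR adjusted p = 0.0329) and 0.49 (SE 0.10, edgeR adjusted p = 0.0195). With 1 library left out, 1 or 2 of the 4 J82 CD44 High calls remained: ETV4 kept its call in 1 of 6 such fits and ETV5 in 0. Without the filter on low counts, SPRY4 and ETV4 were not called there (edgeR adjusted p = 0.0667 and 0.0564). In J82 CD44v6, ETV4 gave 0.66 (SE 0.16, edgeR adjusted p = 0.052) and ETV5 0.30 (SE 0.10, edgeR adjusted p = 0.136). DESeq2 (DESeq2 adjusted p = 0.0148) and the fit over all 24 libraries (edgeR adjusted p = 0.00633) called that ETV4 difference.

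Separation of the libraries was wider than the calls. In J82, 9 of 10 genes had all 3 CD44 High libraries above all 3 parental ones, SPRED2 being the exception, beside 14.7% of all genes. The count was also 9 in J82 CD44v6, with DUSP5 the exception, beside 13.3% of all genes. The median log2 fold change of the 10 was 0.61 in J82 CD44 High and 0.71 in J82 CD44v6. Genes measured in the same libraries are not independent, and both comparisons use the same parental libraries, whose replicates were close together for most of the 10.

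In RT-112, 1 of 10 was called higher in CD44 High against parental (DUSP6, beside 0.249% of all genes tested) and 1 of 10 in CD44v6 (DUSP6, 0.288%). All 3 libraries lay above the parental ones for 4 genes in CD44 High (9.46% of all genes) and 5 in CD44v6 (16.1%). CD44 Low had 1 of 10 called lower than parental in J82 (ETV5, 3.08% of all genes) and 1 in RT-112 (DUSP6, 1.87%), and none called higher. The median log2 fold change there was 0.03 in J82 and -0.14 in RT-112.

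**Figure D3:**
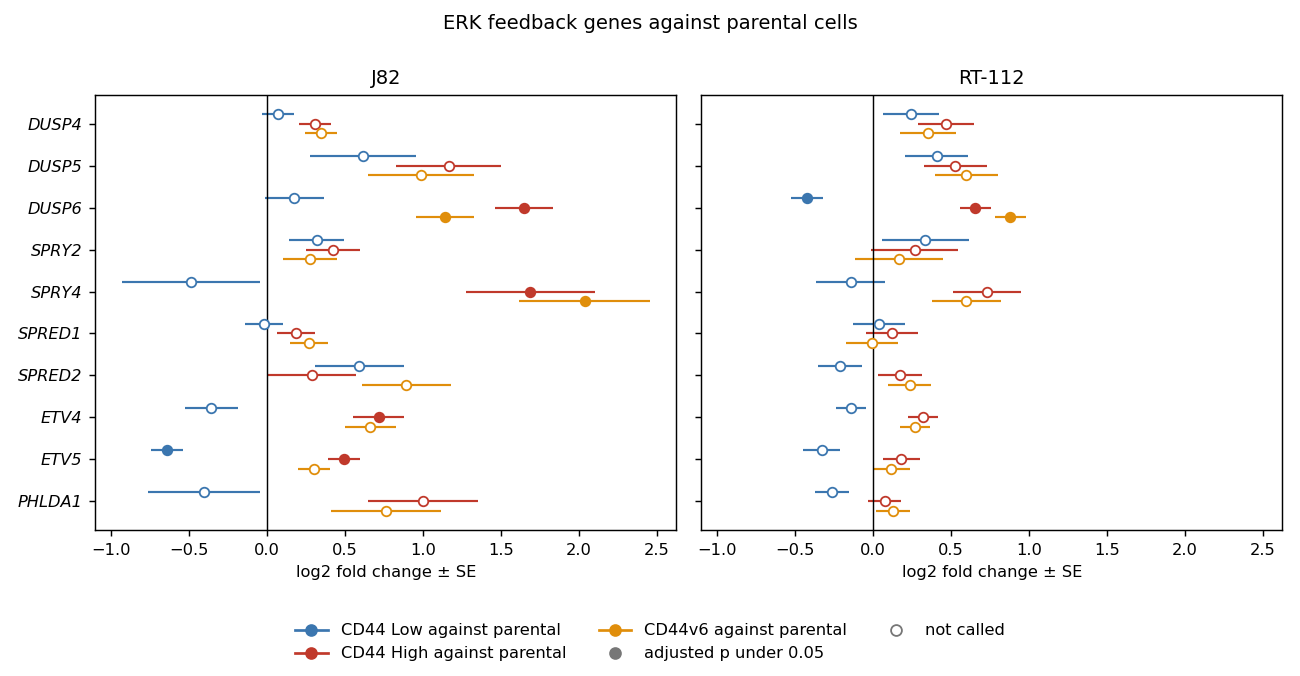
Log2 fold change of each gene in CD44 Low, CD44 High and CD44v6 against parental cells, with its standard error, in J82 (left) and RT-112 (right); filled points have an edgeR adjusted p under 0.05. In J82 CD44 High 4 genes are filled to the right, and in RT-112 only DUSP6 is filled, at -0.43 in CD44 Low, 0.66 in CD44 High and 0.88 in CD44v6.

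CD44v6 and CD44 High were not told apart by these genes. In this comparison 0 of 10 were called in either line, beside 0% of all genes tested by edgeR, where 1536 genes in J82 and 665 in RT-112 had an unadjusted p under 0.05; DESeq2 called 70 and 2 genes, with 0 of the 10. The smallest unadjusted p values were those of DUSP6, which was lower in CD44v6 in J82 (log2 fold change -0.50, 95% interval -0.89 to -0.12, edgeR adjusted p = 0.477) and higher in RT-112 (0.22, 95% interval 0.01 to 0.44, edgeR adjusted p = 1).

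Whether the lines differed in these changes was tested with 1 fit over all 24 libraries (17438 genes), as the J82 log2 fold change minus that in RT-112. In CD44 High against CD44 Low, 2 of 10 differed beside 10.7% of all genes: ETV5 by 0.66 (SE 0.16, edgeR adjusted p = 0.00999) and ETV4 by 0.64 (SE 0.18, edgeR adjusted p = 0.0238), both with the larger rise in J82. The share is near that of all genes. The ETV5 difference held in 12 of 12 fits that left out 1 library and that of ETV4 in 7. In CD44v6 against CD44 Low, 2 of 10 differed beside 7.52% of all genes: SPRY4 by 1.78 (SE 0.51, edgeR adjusted p = 0.0374) and ETV4 by 0.60 (SE 0.18, edgeR adjusted p = 0.0429), which held in 5 and 4 of 12 such fits. SPRY4 differed by 1.26 without J82 CD44v6 replicate 2. In CD44 High against parental, 1 of 10 differed, DUSP6 by 0.99 (SE 0.21, edgeR adjusted p = 0.048), beside 0.241% of all genes, and it held in 2 of 12 fits. No member differed in CD44 Low against parental (1.06% of all genes, 3 members at an unadjusted p under 0.05), in CD44v6 against parental (0.138%, 1 member) or in CD44v6 against CD44 High (0.00573%, 1 member), by edgeR. For DUSP6 in CD44 High against CD44 Low the difference between the lines was 0.42, with a 95% interval of -0.01 to 0.86.

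The parental cells of the 2 lines differed in 8 of the 10 genes, beside 62.0% of all genes tested, so the count is close to the background. J82 had 9.67-fold more SPRY2 (log2 difference 3.27, SE 0.25, edgeR adjusted p = 1.39e-10), 2.28-fold more DUSP4 and 2.09-fold more ETV5. RT-112 had 11.2-fold more PHLDA1 (log2 difference of J82 from RT-112 -3.48, SE 0.31, edgeR adjusted p = 1.66e-09), 6.82-fold more DUSP6, 5.41-fold more DUSP5, 4.04-fold more ETV4 and 1.71-fold more SPRED2. SPRY4 and SPRED1 differed by -0.29 and -0.15 on the log2 scale and were not called. Over all groups, every RT-112 library lay above every J82 library for DUSP6, ETV4, PHLDA1 and DUSP5, and every J82 library lay above every RT-112 library for SPRY2 and DUSP4. The labels give no date or sequencing run, so the line and the handling of its libraries cannot be told apart.

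Across the 12 libraries of a line, the genes moved together to different degrees. In J82, the Pearson correlation of a gene's log2 CPM with the mean of the other 9 was highest for SPRY4 (0.92) and DUSP4 (0.86) and lowest for SPRED2 (0.22) and SPRY2 (0.48). In RT-112 it was highest for ETV4 (0.90), SPRED2 (0.81) and DUSP6 (0.81), and near 0 for SPRY2 (0.01) and SPRED1 (0.02). DUSP6 and ETV4 had a correlation of 0.88 in J82 and 0.90 in RT-112. These are descriptions over 12 libraries that fall into 4 groups and share depth and handling. Among 8725 other genes with enough counts, those most like the mean profile of the 10 in both lines were ERRFI1 (0.92 in J82, 0.93 in RT-112), a feedback inhibitor of the EGF receptor, SLC20A1 (0.89 and 0.94), a phosphate transporter, and TNFAIP3 (0.89 and 0.91), an inhibitor of NF-kappa-B signalling. Those most like DUSP6 alone were WARS1 (0.89 and 0.87), a tryptophanyl-tRNA synthetase, JAG1 (0.85 and 0.94), a Notch ligand, and again ERRFI1 (0.85 and 0.96).

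Other genes of the pathway were read from 4 lists in CD44 High against CD44 Low. Of 13 other feedback genes, 3 were called higher and 3 lower in J82, and 2 higher and 3 lower of 9 tested in RT-112, beside 15.7% and 16.0% of all genes called in either direction. ERRFI1 was higher in both lines (log2 fold change 1.81, edgeR adjusted p = 5.35e-05, in J82 and 0.97, edgeR adjusted p = 0.000161, in RT-112), as was DUSP7, another ERK phosphatase (0.82, edgeR adjusted p = 0.044, and 1.02, edgeR adjusted p = 0.0097). DUSP16, a phosphatase that acts mainly on JNK, was lower in both (-0.70, edgeR adjusted p = 0.00271, and -1.36, edgeR adjusted p = 9.98e-05). SPRY1, a Sprouty gene, went against SPRY4 in J82 at -1.84 (edgeR adjusted p = 0.0397) and was not called in RT-112 at 0.10 (edgeR adjusted p = 0.919). The list medians were -0.19 in J82 and 0.18 in RT-112. The DUSP7 and SPRY1 calls in J82 held in 1 and 2 of 6 fits that left out 1 library.

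Of 12 other ERK targets, 3 were called higher and 2 lower in J82, and 4 higher and 0 lower of 11 tested in RT-112, beside the same 15.7% and 16.0% of all genes in either direction (8.83% and 9.01% higher), with list medians of 0.70 and 0.32. FOSL1, a FOS-family transcription factor whose level follows sustained ERK activity, was higher in both lines (0.95, edgeR adjusted p = 0.0466, and 1.5, edgeR adjusted p = 0.000537). CCND1, which encodes cyclin D1, rose by 1.60 in J82 (edgeR adjusted p = 2.15e-07) and 0.32 in RT-112 (edgeR adjusted p = 0.0165). FOSL1 in J82 and CCND1 in RT-112 kept their calls in 2 and 3 of 6 fits without 1 library.

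The kinase cascade itself had a small median change. Of 16 cascade genes, 3 were called higher and 2 lower in J82 and 2 higher and 1 lower in RT-112, with medians of 0.01 and 0.07. Of all genes tested, 15.7% in J82 and 16.0% in RT-112 were called in either direction. The cascade share was above that of all genes in J82 and near it in RT-112. HRAS (0.37, edgeR adjusted p = 0.0131, and 0.37, edgeR adjusted p = 0.0218) and the scaffold gene KSR1 (0.69, edgeR adjusted p = 0.0289, and 0.85, edgeR adjusted p = 0.00485) were higher in both lines. The RAS exchange factor gene SOS2 was lower in both (-0.46, edgeR adjusted p = 0.0253, and -0.49, edgeR adjusted p = 0.05 after rounding, just under the threshold). Without 1 library, SOS2 kept its call in 3 of 6 fits in J82 and 1 in RT-112, HRAS in 5 and 2, and KSR1 in 1 and 6. Of 10 genes that restrain the cascade or its targets, 2 were called higher in J82 and none in RT-112. In RT-112, 1 of 10 had an unadjusted p under 0.05 by edgeR, and DESeq2 called 0. Of all genes tested, 8.83% in J82 and 9.01% in RT-112 were called higher. The J82 share of restraints is near the 15.7% of all genes called there in either direction. DAB2IP, a RAS GTPase-activating protein gene, rose by 1.29 in J82 (edgeR adjusted p = 0.00143) and measured 0.13 in RT-112 (edgeR adjusted p = 0.352).

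**Figure D4:**
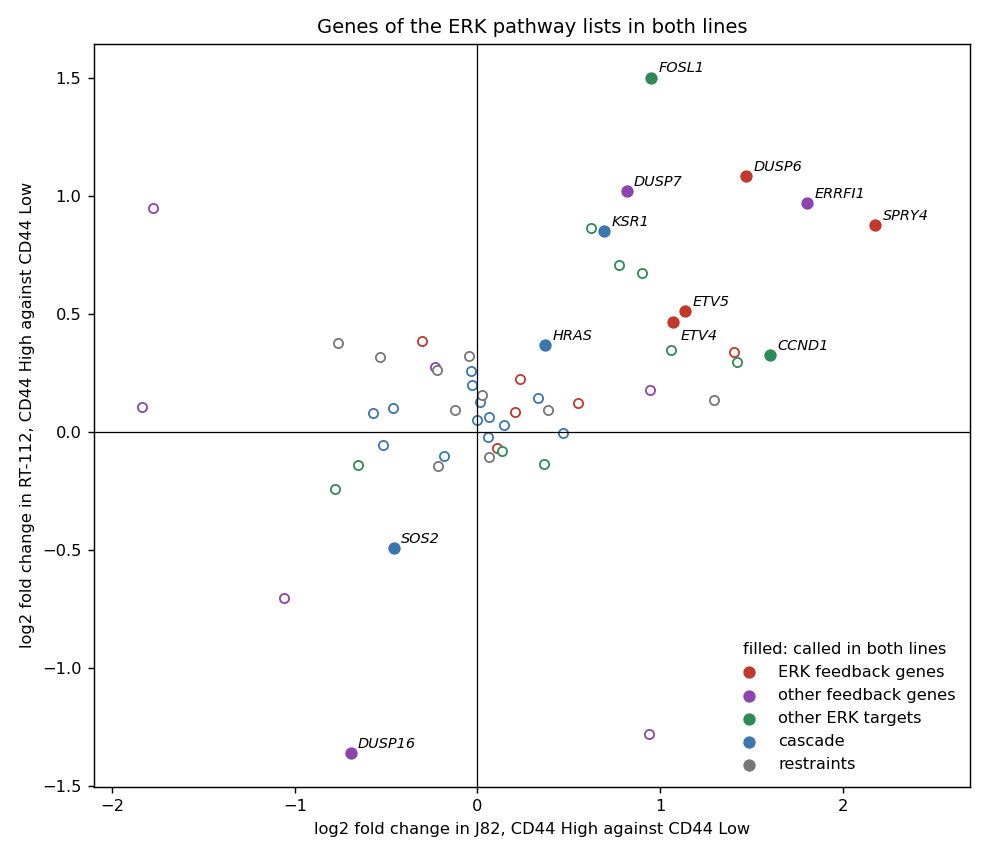
Log2 fold change in CD44 High against CD44 Low in J82 (horizontal) and RT-112 (vertical) for the 10 feedback genes and the genes of the 4 other lists, 56 genes tested in both lines; filled, named points were called in both. SPRY4 lies at 2.18 and 0.88, DUSP6 at 1.47 and 1.08, and DUSP16 at -0.70 and -1.36.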

How the data were processed

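Per the labels' protocols, a sequencing company read total RNA purified on columns, for 24 libraries. What the authors deposited is a single table of raw, unscaled counts with a row for each gene symbol. The submitters' processing notes name HISAT2, StringTie and the build GRCh37; their roles, the annotation and the use of strand in counting are not given in the sources used here. All values were whole numbers, 0 columns were left unmatched and 0 rows had no gene name.

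The members and the gene lists were chosen with earlier results of these data known. In R 4.3.3, edgeR 4.0.16 (filterByExpr, TMM factors, quasi-likelihood F-test) was run separately on the 12 libraries of each line, with the group and no covariate, giving 15951 genes in J82 and 15645 in RT-112. Differences between the lines used interaction contrasts over all 24 libraries. P-values are two-sided and adjusted with the Benjamini-Hochberg method over all genes tested; calls have an adjusted p under 0.05, and intervals cover 95%. The spread between replicates (common biological coefficient of variation 0.183 in J82 and 0.152 in RT-112) and counting error set the precision, the latter most for genes with few counts such as SPRY4. No replicate pair of a group agreed within sampling noise (chi-square per degree of freedom 6.03 to 58.7).

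All 10 members are named, with CD44 as the check of the labels. A list gene is named when it was called in CD44 High against CD44 Low in both lines, or had the largest called change of its list in a line. The genes most like a profile are the 3 with the largest smaller Pearson r of the 2 lines, computed from log2 CPM (prior count 2), among genes whose average log2 CPM reached 3.

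Groups share replicate numbers, which the labels do not explain. Across genes, the departures of libraries with the same number from the means of their groups correlated above 0.1 for every number in 1 of 12 comparisons, J82 CD44v6 against CD44 High (0.113, 0.109 and 0.252), where the pairing comes from the data. Alternatives were a replicate block, no filter, median-of-ratios factors, fits restricted to the 2 groups or widened to all 24 libraries, the Wald test of DESeq2 1.42.0, and leaving out each library. Gene overlaps are from GENCODE 29, which may not be the annotation used for counting. Python 3.11.15 with matplotlib 3.10.9 drew the figures.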

Additional observations from a re-analysis of the deposited data

Results flagged for a closer look

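A test of the difference between the lines (interaction contrast over all 24 libraries, edgeR adjusted p under 0.05) marked 5 changes, each larger in J82 than in RT-112. DUSP6 in CD44 High against parental differed by 0.99 on the log2 scale (95% interval 0.55 to 1.42), with 3.13-fold in J82 and 1.58-fold in RT-112. In CD44 High against CD44 Low, ETV4 differed by 0.64 (95% interval 0.27 to 1.01) and ETV5 by 0.66 (95% interval 0.33 to 0.99). In CD44v6 against CD44 Low, SPRY4 differed by 1.78 (95% interval 0.71 to 2.84) and ETV4 by 0.60 (95% interval 0.23 to 0.97). With 1 library left out, the ETV5 difference kept its call in 12 of 12 fits, ETV4 in 7 and 4, SPRY4 in 5 and DUSP6 in 2. The lines also differed in level before any comparison, with 6.82-fold more DUSP6 in RT-112 parental cells and 2.09-fold more ETV5 in J82 parental cells; the part of these levels in the differences was not tested.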

How the results depend on the processing

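The 19 counts of members were recomputed under each alternative, and no called member changed direction in any. Median-of-ratios factors moved none of the 19 by over 1.5 times. Without the filter on low counts, the count was 2 in J82 CD44 High against parental (4 in the report), 0 in RT-112 CD44 Low against parental (1), 3 in RT-112 CD44v6 against CD44 Low (6) and 0 for the line difference in CD44 High against parental (1). Fits on the 2 groups compared gave 7 in J82 CD44 High against parental, 1 in J82 CD44v6 against parental (2 in the report) and 2 in RT-112 CD44v6 against parental (1 in the report). DESeq2 gave 6 in J82 CD44v6 against parental. The fit on all 24 libraries gave 4 in J82 CD44v6 against parental, 0 in RT-112 CD44 Low against parental and 3 in RT-112 CD44v6 against CD44 Low. The replicate block, where the labels do not say that a number pairs libraries, gave 4 in J82 CD44v6 against parental and 0 in RT-112 CD44 Low against parental. In the other 10 comparisons it moved the count by no more than 1.5 times, and in J82 CD44v6 against CD44 High the count was 0 with and without the block. Against parental, the block called DUSP5 in J82 CD44 High and CD44v6 (edgeR adjusted p = 0.00912 and 0.0304) and DUSP4 in J82 CD44v6 (edgeR adjusted p = 0.0384). Against CD44 Low, it called DUSP4 and PHLDA1 in J82 CD44v6 (edgeR adjusted p = 0.0494 and 0.00705). SPRY4 and SPRED2 lost their calls with the block in RT-112 CD44v6 against CD44 Low (edgeR adjusted p = 0.0594 and 0.0531). The cause of these shifts was not tested.

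With 1 library left out, the count ran from 1 to 2 in J82 CD44 High against parental, 0 to 3 in J82 CD44v6 against parental, 0 to 0 in RT-112 CD44 Low against parental, 0 to 1 in RT-112 CD44 High against parental, and, against CD44 Low, 2 to 6 in RT-112 CD44 High (2 without its replicate 1) and 1 to 3 in RT-112 CD44v6. For the line differences it ran from 0 to 1 in CD44 High against parental, 1 to 3 in CD44 High against CD44 Low and 0 to 3 in CD44v6 against CD44 Low. The counts in J82 CD44 High and CD44v6 against CD44 Low stayed at 4 or 5. The lowest count of any member was 37, for SPRY4 in J82 CD44 Low, where counting error weighs most.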

Other observations

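Of the immediate early genes of the pathway, DUSP1, FOS and EGR1 were called higher than parental in J82 CD44 Low as well as in the groups with much CD44. They are named here after their values were seen, and other genes of the same lists went otherwise. Against J82 parental cells, MYC was called higher in CD44 Low but not in CD44 High or CD44v6. IER3 was called higher in CD44 High and CD44v6 but not in CD44 Low. In J82 CD44 Low, 8 of 12 other ERK targets and 5 of 13 other feedback genes had an unadjusted p under 0.05 by edgeR, beside 3534 of 15951 genes. DUSP1, a nuclear phosphatase of several MAP kinases, was called higher than parental in all 3 derived groups of both lines: in J82 CD44 Low, CD44 High and CD44v6 by 1.54, 1.30 and 1.16 on the log2 scale (edgeR adjusted p = 0.00021, 0.00118 and 0.00367), and in RT-112 by 0.66, 0.93 and 0.94 (edgeR adjusted p = 0.00989, 0.00274 and 0.00237). In CD44 High against CD44 Low it was not called in either line (-0.23, edgeR adjusted p = 0.339, in J82 and 0.28, edgeR adjusted p = 0.121, in RT-112). The RT-112 CD44 Low call held in 4 of 6 fits that left out 1 library, and the other 5 calls held in 6 of 6.

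FOS, a subunit of the AP-1 transcription factor, gave J82 log2 fold changes against parental of 2.36 in CD44 Low, 2.49 in CD44 High and 2.25 in CD44v6, all called in every fit that left out 1 library. In RT-112 the values were 0.52, 0.44 and 0.56 (edgeR adjusted p = 0.0256, 0.136 and 0.0434), and those of CD44 Low and CD44v6 held in 2 and 1 of 6 such fits. J82 exceeded RT-112 by 1.81, 2.04 and 1.64 in the 3 comparisons (edgeR adjusted p = 0.00352, 0.00458 and 0.0279 for the difference between the lines), from a parental level that was 7.49-fold higher in RT-112. EGR1, an early response transcription factor, gave 1.30, 2.08 and 2.25 in J82, the first held in 2 of 6 fits without 1 library, and -0.25, 0.46 and 0.77 in RT-112, none called there. The 3 comparisons of a line share its parental libraries.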
